A study of Mus musculus with 6 samples.

Results

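The genes described here encode the urea cycle and the enzymes that break down amino acids in liver. They were listed by function, with earlier results of these data known. Of 42 listed genes, 41 were rows of the deposited table of 8390 genes; Amdhd1, of histidine breakdown, was not among the rows analysed here. All 41 passed the filter for testing, which asked for values of 1 or more in 3 or more libraries. They comprise 9 genes of the urea cycle and ammonia handling, 9 of aromatic, 3 of histidine and 6 of sulphur amino acid breakdown, and 14 others. Whole liver RNA of C57BL/6 mice was sequenced in 6 libraries. The LV group comprised 3 libraries from mice given 3e8 transducing units of a lentiviral vector intravenously, with livers taken at 4 h. They were set against 3 libraries from untreated mice of the same strain; since no mock injection was analysed, vector and injection cannot be told apart. The labels give no genotype, sex or age, and do not describe the vector's cargo. They do not state that replicates are separate animals, and the spread behind each p-value may therefore be partly technical.

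The urea cycle turns toxic ammonia into urea for excretion. Its opening steps take place in hepatocyte mitochondria and the rest in the cytosol, and periportal hepatocytes carry most of it, whereas a thin pericentral rim makes glutamine from ammonia that escaped. Amino acid breakdown feeds this cycle with nitrogen and passes the carbon skeletons to glucose, ketone bodies or the citric acid cycle. The liver is the main site for the aromatic, histidine and methionine routes, and several of their enzymes are known to respond to glucocorticoids, glucagon and feeding.

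Values are whole numbers in the authors' unit, which no label names, and they are not read counts, so the depth is unknown. Library sums were 497295 to 526009. LV replicate 3 and untreated replicate 2 stood apart from the rest: the median of 10 male-biased liver genes was 2.11 and 2.43 log2 units above the untreated mean in these libraries, and below that mean elsewhere (-2.33 and -1.82 in the other LV libraries, -1.15 and -1.16 in the other untreated ones). Hepatocyte markers were strong, with Alb at 41700 to 54529 in LV and 49014 to 69728 in untreated livers. Of the other cell markers, 6 of 7 for cholangiocytes and 14 of 15 for leukocytes were not rows of the table. No marker gene of any list passed the test. Kupffer marker sums (10 measured genes) were 128, 304 and 195 for LV replicates 1 to 3, against 366, 245 and 335 for untreated ones. For 12 sinusoidal endothelial markers every LV sum was lower (136, 251 and 236, against 285, 276 and 259). These sums lean on high genes such as Clec4g, with 11, 43 and 33 in LV against 55, 54 and 58 in untreated livers. Of the 12 endothelial fold changes, 10 were negative and 2 positive. Lyve1 went the other way, with 10, 5 and 5 in LV against 3, 3 and 2 in untreated livers. All 12 pericentral markers had negative fold changes. LV replicate 1 had the lowest log2 median of the 6 libraries for Kupffer (-1.10), endothelial (-0.84) and pericentral markers (-0.74). Its periportal median was 0.30 over 12 markers, of which 3 (Gls2, Sds and Hal) are members, and 0.17 over the other 9. The part of these differences in the member values was not tested.

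No urea cycle or amino acid gene passed the test 4 h after the vector. In limma on log2(value + 1), with Benjamini-Hochberg adjustment over 8386 genes, 0 of 41 members were higher and 0 lower at an adjusted p under 0.05, where 4.63% of all tested genes were called (3.76% higher and 0.87% lower). Of the 388 called genes, 275 had a mean under 30, below every member, and 32 had identical rounded values within each group. At an unadjusted p under 0.05 there were 3 members, Afmid, Ahcy and Tat, all lower, or 7.32% of members beside 19.5% of all genes (10.3% lower and 9.21% higher). Among the 1959 genes whose mean reached 30, about the level of the lowest member, 5.77% were called and 22.4% had an unadjusted p under 0.05. Fold changes of the members lay between -0.61 and 0.39 on the log2 scale. Their median was -0.02, beside -0.07 for all tested genes and -0.11 for genes whose mean reached 30. Of the 41 members, 23 were negative (56.1%), beside 58.1% of all genes. With median of ratios scaling 16 members were negative, and 27 with scaling by the total without the 10 highest genes. The median size of the log2 fold change without its sign was 0.11 for members and 0.19 for all genes. The 95% interval of the fold change lay within 1.5-fold in both directions for 21 members and within 1 log2 unit for 37. For 20 members a 1.5-fold change was not excluded. In bulk tissue, fewer cells of a type and less RNA per cell cannot be told apart.

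**Figure D1:**
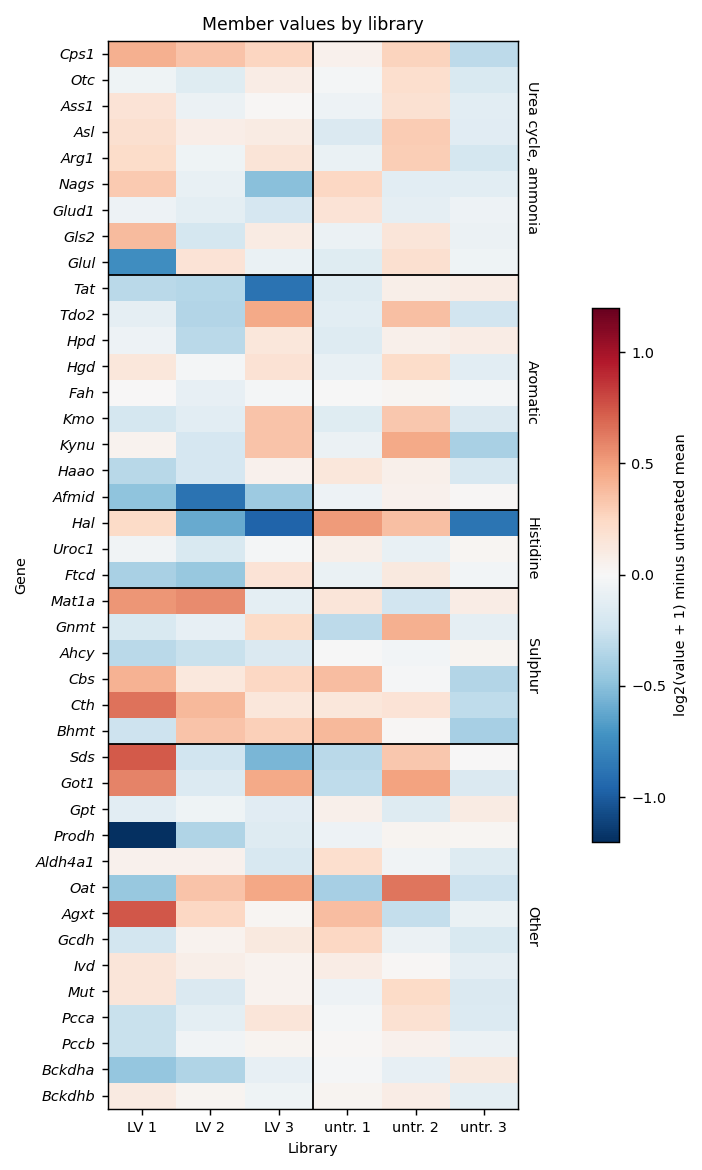
Heat map of the 41 measured members (rows, by pathway) in the 3 LV and 3 untreated libraries (columns). Colour is log2(value + 1) minus the untreated mean of that gene; most cells are pale, and Afmid, Ahcy, Tat and Prodh are below the untreated libraries in each LV library.

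**Figure D2:**
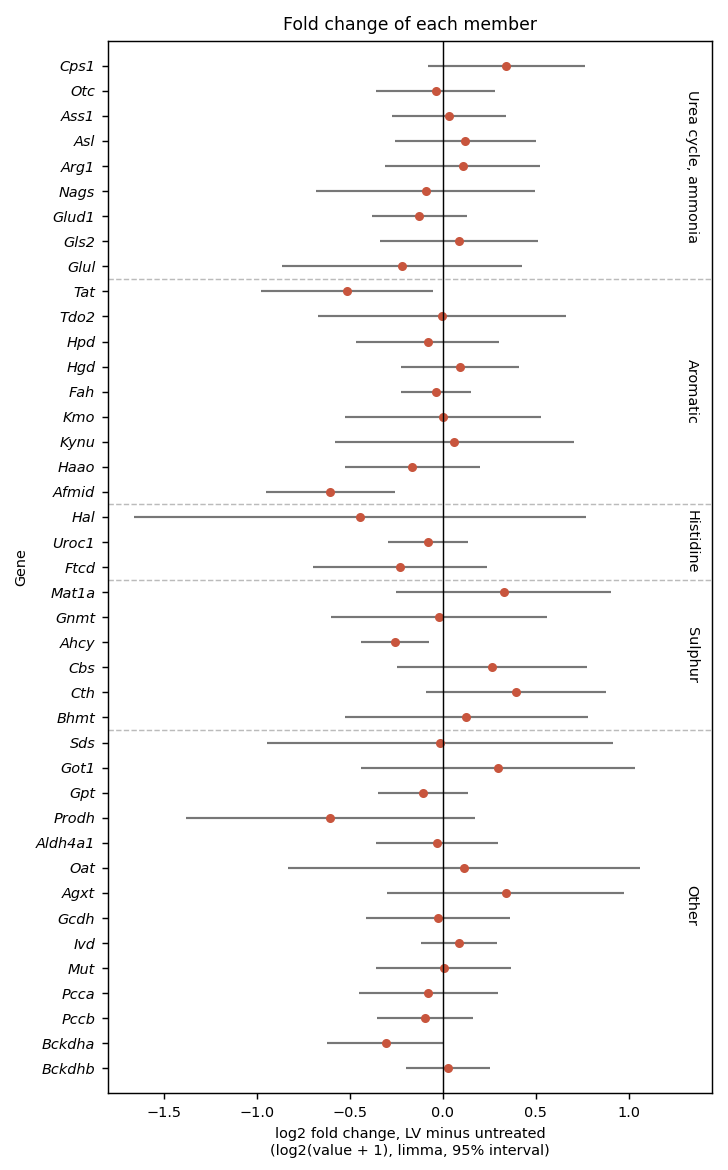
Log2 fold change of each of the 41 members, LV minus untreated (points), with the 95% interval from limma (lines). Intervals of 38 members cross 0; those of Tat, Afmid and Ahcy lie below it before adjustment for multiple testing.

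In 4 members, Afmid, Ahcy, Tat and Prodh, every LV value lay below every untreated value. They were 9.76% of members, beside 11% of all tested genes and 17.1% of those with a mean of at least 30. In 0 members did every LV value lie above (8.65% of all genes). None of the 4 passed the adjusted test. Their upstream sequences are shown because these are the members that separated the groups in one direction. Each is the 200 bases before the annotated start, from RefSeq on build GRCm38.p6, read 5′ to 3′ on the gene's strand. GENCODE vM21 transcripts on the same build started at the same base in Ahcy, 1 base downstream in Tat and 5 bases downstream in Afmid; in Prodh 1 started 102 bases upstream, inside the window, and 1 started 27 bases downstream. Afmid lies at chr11:117825719-117825918 on the plus strand, Ahcy at chr2:155074498-155074697 on the minus strand, Tat at chr8:109990236-109990435 on the plus strand and Prodh at chr16:18089191-18089390 on the minus strand. Capitals mark a match to a motif searched on both strands.
Afmid: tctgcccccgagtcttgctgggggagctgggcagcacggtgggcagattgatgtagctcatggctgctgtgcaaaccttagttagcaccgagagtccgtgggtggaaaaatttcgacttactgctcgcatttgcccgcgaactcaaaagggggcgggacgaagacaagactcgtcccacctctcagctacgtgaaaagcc
Ahcy: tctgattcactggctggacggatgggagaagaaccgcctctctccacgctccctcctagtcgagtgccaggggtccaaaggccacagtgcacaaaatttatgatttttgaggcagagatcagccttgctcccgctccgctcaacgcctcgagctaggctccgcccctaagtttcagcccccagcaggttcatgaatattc
Tat: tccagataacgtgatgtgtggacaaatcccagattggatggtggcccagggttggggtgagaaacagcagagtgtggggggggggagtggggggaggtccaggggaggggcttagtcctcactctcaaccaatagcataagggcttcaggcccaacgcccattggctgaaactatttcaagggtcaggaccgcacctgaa
Prodh: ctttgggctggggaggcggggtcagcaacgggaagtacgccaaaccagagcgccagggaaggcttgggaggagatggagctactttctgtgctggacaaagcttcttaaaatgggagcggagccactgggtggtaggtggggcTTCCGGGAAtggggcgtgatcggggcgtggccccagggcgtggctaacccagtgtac
The motifs were TTGCNNAA (C/EBP), TGACGTCA (cyclic AMP response element), AGAACA (half-site of the glucocorticoid receptor), TTCNNNGAA (STAT) and TATAAA (core promoter box). The capitals in Prodh match the STAT motif, which 5.49% of 32851 promoter windows of this length held. The match begins 57 bases before the RefSeq start, downstream of the GENCODE start that lies 102 bases upstream. The other 3 sequences matched none of the motifs. For 31 of the 41 members a promoter was in the RefSeq table, 33 windows in all. Of these, 3 (9.09%) held each of the C/EBP, glucocorticoid half-site, STAT and core promoter motifs, beside 7.47%, 12.9%, 5.49% and 9.96% of all windows. The cyclic AMP motif was in 0 of the 33 windows and 1.47% of all. The windows came from another build than the mm9 named for the data and were matched by gene symbol alone.

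The 6 genes of the urea cycle proper gave log2 fold changes from -0.09 to 0.34, with a median of 0.07. Cps1, which forms carbamoyl phosphate from ammonia and commits nitrogen to the cycle, had 1361, 1287 and 1213 in LV livers, against 1049, 1217 and 816 in untreated livers. The lowest LV value was just under the highest untreated one, so the groups overlapped, and the fold change was the largest of the 6 (log2 0.34 ± 0.17 SE, 95% interval -0.08 to 0.77, limma adjusted p = 0.326). An exact two-sided permutation test over the 6 libraries gave p = 0.2, and 0.1 is the smallest it can give with 3 against 3. Otc, which makes citrulline, had 143, 134 and 158 in LV against 146, 171 and 131 in untreated livers. Ass1, which joins citrulline to aspartate, had 649, 551 and 586 in LV against 557, 658 and 531 in untreated livers. Both sets of values ran through each other, with fold changes of -0.04 and 0.04.

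Asl, which splits argininosuccinate into arginine and fumarate, had 370, 342 and 348 in LV livers, against 287, 402 and 296 in untreated ones. Arg1, the arginase that releases urea, had 1001, 833 and 958 in LV livers, against 814, 1058 and 743 in untreated ones. In both genes untreated replicate 2 was the highest of the 6 libraries. Nags makes N-acetylglutamate, the activator that Cps1 requires; it had 64, 48 and 36 in LV, against 61, 47 and 47 in untreated livers. For Otc, Ass1, Asl and Arg1 the 95% interval excluded a change of 1.5-fold in either direction. For Cps1 the upper bound was 1.70 times the untreated level, and for Nags the lower bound was 0.62 times.

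Ammonia and glutamine enzymes on the list did not pass either. Glud1, glutamate dehydrogenase, had 285, 273 and 258 in LV against 332, 276 and 285 in untreated livers. Gls2, the liver-type glutaminase that releases ammonia next to the urea cycle, had 200, 133 and 164 in LV against 146, 170 and 146 in untreated livers. Both overlapped between groups (log2 fold changes -0.13 and 0.09). Glul, the glutamine synthetase of pericentral hepatocytes, had 227, 428 and 360 in LV against 345, 435 and 368 in untreated livers. The low value was LV replicate 1 alone. In that library the median of 12 pericentral markers was 0.74 log2 units below the untreated mean (-0.74), while it was -0.05 and -0.18 in the other LV libraries and 0.03, 0.13 and -0.24 in the untreated ones; its part in the Glul value was not tested. The fold change of Glul was -0.22 ± 0.26 SE (limma adjusted p = 0.673).

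Slc25a22, a mitochondrial glutamate carrier, belongs to a list of further genes of these pathways, and it rose. It had 198, 219 and 186 in LV livers against 119, 136 and 141 in untreated livers. All LV values were higher (log2 fold change 0.60 ± 0.11 SE, limma adjusted p = 0.0428). That call was lost when any 1 of the 6 libraries was left out, with adjusted p between 0.0591 and 0.156, without LV replicate 3 and untreated replicate 2 together (0.135), and with scaling by the total without the 10 highest genes (0.0626).

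**Figure D3:**
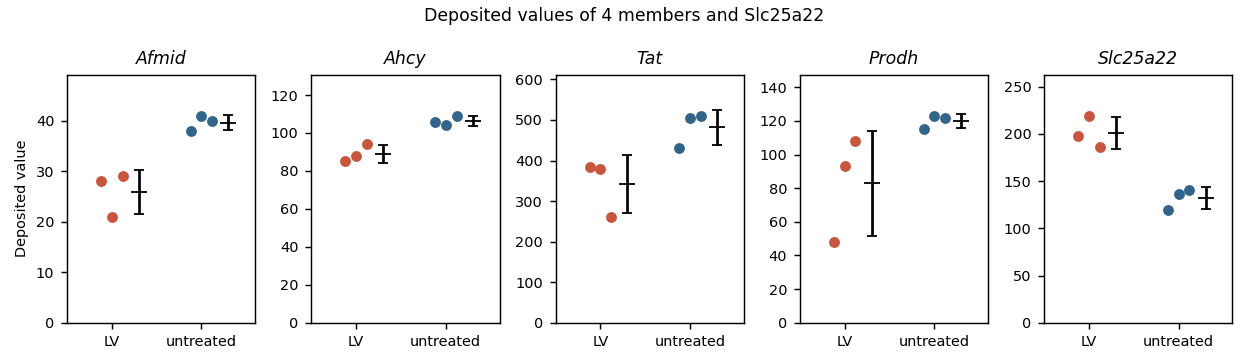
Deposited values (y axis, authors' unit, from 0) of Afmid, Ahcy, Tat and Prodh, and of Slc25a22 from the list of further pathway genes, in LV and untreated livers. Points are libraries and bars are mean ± SD (n = 3); LV values lie below the untreated ones in the 4 members and above them in Slc25a22.

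In tyrosine breakdown the opening enzyme had the lowest fold change. Tat, tyrosine aminotransferase, a classical target of glucocorticoids in liver, had 385, 380 and 260 in LV livers, against 432, 504 and 510 in untreated livers. Every LV library was below every untreated one, with LV replicate 3 the lowest. The means were 342 ± 70.8 in LV and 482 ± 43.4 in untreated livers (SD, n = 3 each). The log2 fold change was -0.51 ± 0.18 SE and missed the threshold (limma adjusted p = 0.214; -0.33 without LV replicate 3). Hpd, the next dioxygenase of the route, had 1284, 1073 and 1471 in LV, against 1204, 1398 and 1427 in untreated livers. Hgd, which opens the homogentisate ring, had 350, 313 and 359 in LV, against 299, 371 and 291 in untreated livers. Fah, which performs the last cleavage, was among the steadiest members, with 483, 450 and 474 in LV, against 480, 490 and 474 in untreated livers. Its 95% interval ran from -0.23 to 0.15 on the log2 scale.

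In tryptophan breakdown, Afmid came nearest to a call of all 41 members. This formamidase turns N-formylkynurenine into kynurenine. It had 28, 21 and 29 in LV livers, against 38, 41 and 40 in untreated livers, and the groups were separate. The means were 26.0 ± 4.36 in LV and 39.7 ± 1.53 in untreated livers (SD, n = 3 each). The log2 fold change was -0.60 ± 0.14 SE (95% interval -0.95 to -0.26, limma adjusted p = 0.0839, exact two-sided permutation p = 0.1). Under 1 of 16 other settings, scaling by the total without the 10 highest genes, its adjusted p was 0.0418; over all of them it ranged up to 0.219. It ranked 598 of 8386 genes by p.

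The enzymes on either side of Afmid did not separate the groups. Tdo2, the dioxygenase that opens the indole ring, had 515, 434 and 759 in LV against 509, 711 and 472 in untreated livers. Kmo, which hydroxylates kynurenine, had 87, 92 and 128 in LV against 91, 126 and 89 in untreated livers. Kynu, kynureninase, had 38, 32 and 47 in LV against 35, 51 and 28 in untreated livers. In each of these genes the high values were LV replicate 3 and untreated replicate 2, and the fold changes were 0.00, 0.00 and 0.06. Haao, which forms the precursor of quinolinate, had 349, 382 and 456 in LV against 483, 459 and 385 in untreated livers (log2 fold change -0.16 ± 0.15 SE, limma adjusted p = 0.582).

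Histidine breakdown had 3 measured members, all with negative fold changes and none past the test. Hal, histidine ammonia-lyase, which starts the route, had 145, 81 and 63 in LV livers, against 177, 159 and 67 in untreated livers. It varied by 2.30-fold among LV and 2.64-fold among untreated libraries, more than any other member in untreated livers, and its interval was the widest (log2 fold change -0.45, 95% interval -1.66 to 0.77). Uroc1, urocanase, had 206, 187 and 209 in LV against 222, 199 and 215 in untreated livers. Ftcd, which passes the one-carbon unit to folate, had 132, 126 and 194 in LV against 164, 188 and 169 in untreated livers. Its LV replicates 1 and 2 were below all untreated libraries and LV replicate 3 above them, so no direction was shared by the group.

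The sulphur amino acid genes had the highest median of the 5 groups, 0.20 on the log2 scale, and no call. It fell to 0.00916 without untreated replicate 3 and stood at 0.36 without untreated replicate 1. Mat1a, which makes S-adenosylmethionine, had 1878, 1932 and 1200 in LV livers against 1435, 1109 and 1385 in untreated livers. LV replicates 1 and 2 were above all untreated libraries, and LV replicate 3 was not. Gnmt, which uses up excess S-adenosylmethionine, had 1300, 1385 and 1733 in LV against 1187, 1984 and 1378 in untreated livers. Ahcy, which cleaves S-adenosylhomocysteine, had 85, 88 and 94 in LV livers against 106, 104 and 109 in untreated livers. Its groups were separate by a small margin: 89.0 ± 4.58 in LV and 106 ± 2.52 in untreated livers (SD, n = 3 each), a log2 fold change of -0.26 ± 0.07 SE (limma adjusted p = 0.139). With median of ratios scaling the adjusted p of Ahcy was 0.423.

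Transsulphuration, the route from homocysteine to cysteine, had positive fold changes at both its steps without a call. Cth, cystathionine gamma-lyase, had 226, 188 and 157 in LV livers against 157, 161 and 116 in untreated livers. Its fold change was the largest positive one of all members (log2 0.39 ± 0.19 SE, limma adjusted p = 0.323), and LV replicate 3 lay within the untreated range. Cbs, cystathionine beta-synthase, had 324, 264 and 288 in LV against 313, 239 and 189 in untreated livers. Bhmt, which returns homocysteine to methionine with betaine, had 264, 398 and 383 in LV against 410, 316 and 238 in untreated livers. Bhmt has the close paralog Bhmt2, so how reads were split between them is uncertain.

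Of the 14 remaining genes, Prodh alone separated the groups. Prodh, which starts proline oxidation, had 48, 93 and 108 in LV livers against 115, 123 and 122 in untreated livers. LV replicate 1 was far below the others, and the LV values varied by 2.25-fold. The log2 fold change of -0.61 ± 0.31 SE became -0.26 without LV replicate 1 (limma adjusted p = 0.340 both with and without it). Aldh4a1, the next enzyme of proline breakdown, had 221, 222 and 187 in LV against 246, 207 and 192 in untreated livers. Oat, ornithine aminotransferase, had 154, 269 and 292 in LV against 161, 332 and 178 in untreated livers.

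Serine, alanine, aspartate and glyoxylate enzymes overlapped between the groups. Sds, serine dehydratase, had 287, 147 and 117 in LV livers against 137, 215 and 173 in untreated livers. LV replicate 1 was the highest and LV replicate 3 the lowest of the 6 libraries, so the LV values spread on both sides of the untreated ones. Got1, the cytosolic aspartate aminotransferase, had 165, 97 and 149 in LV against 88, 152 and 96 in untreated livers. Gpt, alanine aminotransferase, was steadier, with 224, 237 and 223 in LV against 256, 220 and 262 in untreated livers. Agxt, which detoxifies glyoxylate, had 358, 253 and 216 in LV against 275, 174 and 202 in untreated livers.

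Enzymes of lysine, branched-chain amino acid and propionate breakdown had log2 fold changes between -0.31 and 0.09. Gcdh, glutaryl-CoA dehydrogenase of the lysine route, had 171, 205 and 216 in LV livers against 238, 190 and 176 in untreated livers. Bckdha, the E1 alpha subunit of the branched-chain ketoacid dehydrogenase, had 136, 146 and 176 in LV against 186, 175 and 204 in untreated livers. LV replicate 3 was 1 unit above the lowest untreated library, and the log2 fold change was -0.31 ± 0.13 SE (limma adjusted p = 0.262). Its partner subunit Bckdhb had 54, 51 and 48 in LV against 51, 53 and 46 in untreated livers. Ivd, isovaleryl-CoA dehydrogenase of leucine breakdown, had 108, 103 and 101 in LV against 104, 99 and 91 in untreated livers. Pcca and Pccb, the subunits of propionyl-CoA carboxylase, and Mut, the mutase that follows, had fold changes of -0.08, -0.09 and 0.00. The intervals of Bckdhb, Ivd, Pcca, Pccb and Mut each excluded a 1.5-fold change.

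Several members shared a pattern within the groups. In 12 of 41 members (29.3%) both LV replicate 3 and untreated replicate 2 were the highest of their group, and in 4 (9.76%) both were the lowest; over all tested genes the shares were 18.7% and 9.87%. The 12 were Otc, Tdo2, Hgd, Kmo, Kynu, Afmid, Ftcd, Gnmt, Prodh, Oat, Pcca and Pccb, and the 4 were Glud1, Mat1a, Gpt and Agxt. In Afmid the margins were narrow, 29 beside 28 in LV and 41 beside 40 in untreated livers. LV replicate 3 and untreated replicate 2 are the libraries with high male-biased genes, and the part of that difference in the member values was not tested. With both left out, 0 of 41 members passed the test (5.39% of all genes were called), and 6 had an unadjusted p under 0.05 (14.6%, beside 21.8% of all genes in that fit).

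**Figure D4:**
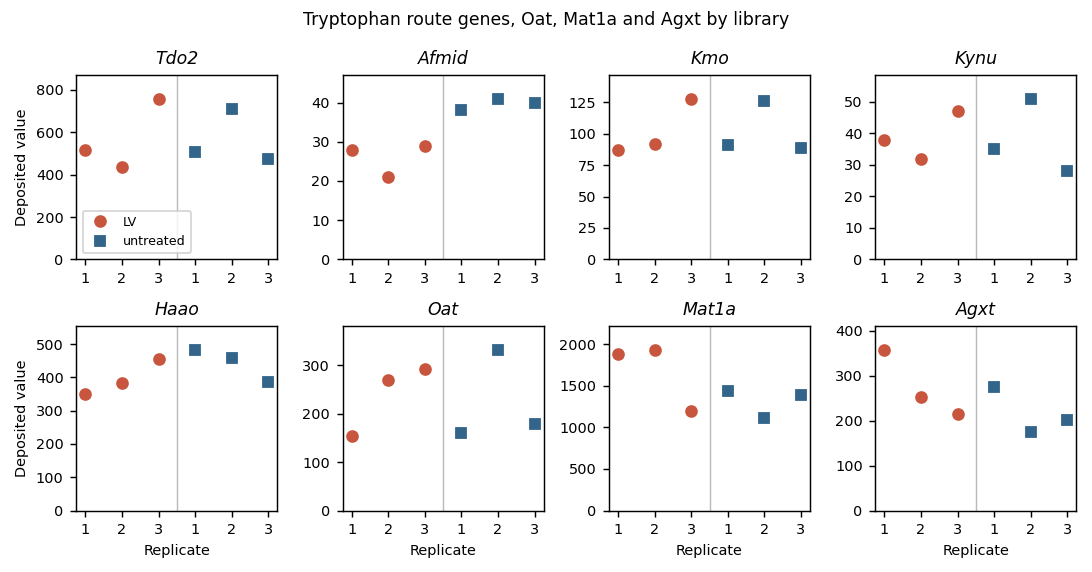
Deposited values (y axis, authors' unit, from 0) of the 5 tryptophan route genes and of Oat, Mat1a and Agxt in each library (x axis, replicate number; circles LV, squares untreated). LV replicate 3 and untreated replicate 2 are the highest of their groups in Tdo2, Afmid (narrowly), Kmo, Kynu and Oat and the lowest in Mat1a and Agxt.

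A list of further genes of the same pathways held 144 genes, of which 126 were in the table. Slc25a22 alone was called higher, 0 were called lower and 125 did not pass, or 0.794% called beside 4.63% of all genes. Negative fold changes made up 93 of the 126 (73.8%, beside 58.1% of all genes), with a median of -0.13. Genes whose mean reached 30 had a median of -0.11. The LV values lay wholly below the untreated ones in 18 of the 126 (14.3%, beside 11% of all tested genes and 17.1% of those with a mean of at least 30) and wholly above in 2 (1.59%, beside 8.65% of all). Among aromatic genes the lowest fold change was that of Ddc, aromatic amino acid decarboxylase, with 11, 8 and 12 in LV against 25, 24 and 7 in untreated livers. Its untreated values spread to both sides of the LV ones (log2 fold change -0.63, limma adjusted p = 0.540), and the highest fold change was that of Acmsd, with 15, 8 and 8 in LV against 8, 8 and 4 in untreated livers.

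Among further sulphur genes, Gclc encodes the catalytic subunit of glutamate-cysteine ligase, the first enzyme of glutathione synthesis. It had 56, 46 and 87 in LV against 122, 117 and 82 in untreated livers (log2 fold change -0.78 ± 0.28 SE, limma adjusted p = 0.216). Nnmt, which methylates nicotinamide, varied within both groups, with 27, 99 and 131 in LV against 1, 39 and 66 in untreated livers. Hdc, histidine decarboxylase, had 6, 9 and 9 in LV against 4, 5 and 6 in untreated livers, and Mthfd1 of folate metabolism had the lowest fold change of the histidine genes, -0.09. Of the remaining genes Ppm1k, the phosphatase that activates the branched-chain ketoacid dehydrogenase, had the highest fold change, with 31, 17 and 22 in LV against 17, 14 and 12 in untreated livers. The lowest was that of the row C630028N24Rik, an older symbol of Hykk, with 3, 5 and 10 in LV against 8, 10 and 9 in untreated livers. In the ammonia group the lowest was the pericentral glutamate transporter Slc1a2, with 13, 42 and 49 in LV against 36, 56 and 44 in untreated livers. In all of these the groups overlapped and none passed the test.

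Of 27 listed liver transcription factors, signalling genes and hormone-responsive genes, 25 were measured. Of these, 1 was higher and 1 lower (8%, beside 4.63% of all genes). The median size of their log2 fold change without its sign was 0.48, beside 0.11 in the members and 0.19 in all tested genes. Stat3, which carries interleukin-6 signals, had 110, 87 and 70 in LV livers against 33, 30 and 25 in untreated livers (log2 fold change 1.55 ± 0.20 SE, limma adjusted p = 0.0142). Tsc22d3, a glucocorticoid-induced gene, had 25, 28 and 19 in LV livers against 46, 47 and 52 in untreated livers (-0.996 ± 0.156 SE, limma adjusted p = 0.0303). Both calls were lost when LV replicate 2 or any 1 untreated library was left out (adjusted p up to 0.0887 for Stat3 and 0.123 for Tsc22d3), and that of Tsc22d3 also without LV replicate 1 (0.111). Without LV replicate 3 and untreated replicate 2 together the adjusted p was 0.0804 for Stat3 and 0.0778 for Tsc22d3. Fold changes of glucocorticoid-induced genes of the list had both signs. The remaining genes named here were chosen after their values were seen, and none passed the test. Fkbp5, a glucocorticoid receptor co-chaperone, had 36, 35 and 46 in LV livers against 15, 25 and 28 in untreated livers, all higher (log2 fold change 0.79 ± 0.26 SE, limma adjusted p = 0.178). Klf15 had 76, 119 and 75 in LV against 143, 161 and 156 in untreated livers, all lower (limma adjusted p = 0.105). The clock gene Per1 had 5, 9 and 2 in LV against 4, 9 and 18 in untreated livers and overlapped. Of other hormone-responsive genes of the list, G6pc had 38, 78 and 23 in LV against 128, 274 and 89 in untreated livers, all lower. Its log2 fold change of -1.81 was the lowest of the list (limma adjusted p = 0.182). Those of Pck1 and Igfbp1, whose values overlapped, were 0.66 and -0.79. Foxa2 and Cebpa came nearer to a call than any other uncalled gene of the list. Foxa2 had 30, 20 and 21 in LV against 12, 11 and 14 in untreated livers, all higher (limma adjusted p = 0.0709). Cebpa had 135, 130 and 162 in LV against 190, 200 and 206 in untreated livers, all lower (limma adjusted p = 0.0796). The LV values lay wholly to one side in 12 of the 25 (48%), 8 lower and 4 higher, beside 19.7% of all tested genes. The list was drawn up with earlier results of these libraries known, so its shares and its median size of change are given only as a description.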

How the data were processed

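Total liver RNA was isolated with QIAzol and made into TruSeq RNA libraries, per the labels' protocols. The submitters' processing notes name mm9 as the build; the aligner, annotation, counting and strand were not given in the sources used here, so none is stated. The unit of the deposited table is a score, in whole numbers that were seemingly scaled by the authors and rounded; no label names it. For genes with a mean of 2 to 5, replicate variance over the mean averaged 0.247 in LV and 0.244 in untreated libraries, under the 1 that read counts give at the least. Columns were matched to samples by their descriptions, and 0 value columns were left unused. The filter kept 8386 genes. LV was compared with untreated livers in limma 3.58.1 (R 4.3.3), with a trended prior variance and no covariates. Intervals are 95% intervals from this fit, unadjusted. On simulated data with known changes, false calls exceeded the adjusted threshold among rounded genes with a mean under 30, but not where the mean reached 30. Simulated noise was independent for each gene and library. In the data, deviations of LV replicate 3 and untreated replicate 2 correlated at 0.61, and the simulation does not cover such shared differences. A gene of the further pathway list is not reported here. Gene lists were written from general knowledge of the pathways; the members, lists, tests and settings were chosen with earlier results of these data known. Genes named by rule are all members, called genes of the other lists, and the highest and lowest fold change in each group of further pathway genes. Fkbp5, Klf15, Per1, G6pc, Pck1, Igfbp1, Foxa2 and Cebpa were named outside this rule, after their values were seen. List genes absent by symbol were matched by a unique synonym in a RefSeq table of GRCm38.p6, used for names and promoters only.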

Additional observations from a re-analysis of the deposited data

How the results depend on the processing

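Over the 16 other fits, 656 values of single members were computed: 596 kept their sign and their side of the threshold, 59 changed sign without being called in either fit, and 1, Afmid, passed. In 21 of 41 members no fit changed the sign. Members called lower were 1 with scaling by the total without the 10 highest genes (2.44%), where 112 of 8386 genes were lower. At an adjusted p under 0.1 there was 1 (2.44%), where 225 of 8386 genes were lower. At an unadjusted p under 0.05 there were 3 (7.32%), where 10.3% of all genes were lower. In either direction, 5.32%, 8.11% and 19.5% of all genes were called in these settings. Members called higher were 0 in every setting run. Negative fold changes numbered 16 to 31 among the members, 16 with median of ratios scaling and 31 without untreated replicate 3. Leaving out single libraries gave 120 to 317 higher and 10 to 116 lower genes in all, 0 to 1 higher and 0 to 1 lower further pathway genes (the 1 higher was not Slc25a22), medians of -0.19 to 0.037 for aromatic, 0.00916 to 0.36 for sulphur and -0.078 to 0.071 for all members. Same replicate numbers do not mark shared animals or days in the labels, and deviations of same-numbered libraries correlated at 0.28, -0.47 and -0.34, so they were not treated as pairs. With the replicate number as a block, 145 genes were higher and 11 lower, 0 members were called, and of the further pathway genes 0 were higher. Under that block Slc25a22 (adjusted p = 0.161) and Tsc22d3 (0.154) were not called, and Stat3 was (0.0293). Without LV replicate 3 and untreated replicate 2 together, 138 genes were lower, 0 further pathway genes were higher, and the median of the other amino acid members was 0.064. Scaling by the total without the 10 highest genes gave 112 lower genes and 0 higher further pathway genes. An adjusted p under 0.1 gave 225 lower genes and 2 higher and 1 lower further pathway genes; an unadjusted p under 0.05 gave 772 higher and 866 lower genes, and 4 higher and 16 lower further pathway genes. The cause of these shifts was not tested. Rounding and the unknown depth limit the low genes most. The background over genes with a mean of at least 30 was added after seeing the data.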
